A study of Mus musculus with 18 samples.

Results

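The comparison set liver against small intestine in mice colonised with the microbiota of young donors, the group labelled YMT. Its members were chosen by sample title: 4 liver arrays and 4 small intestine arrays, 8 of the 18 arrays of the series. All animals were germ-free when they received the transfer at an age of 5 to 6 weeks, carried the genotype C57BL\6, were followed for 8 weeks, and were sampled at 12 or 13 weeks, the labels giving both ages. The young donors were 4 weeks old by the protocol and 5 to 6 weeks old by the design text. The other 10 arrays, 5 per tissue, came from OMT recipients, which were handled alike but received the microbiota of donors aged about 2 years. They serve below as a second set of animals, whose tissue contrast is also tested against that of the YMT recipients. The titles call the arrays biological replicates. They do not say whether the liver and the intestine that share a number came from 1 mouse, and donors and cages per group were not analysed here, nor were germ-free or conventionally raised animals. The values thus describe the tissues of colonised mice, not the effect of colonisation, and p-values measure the spread among recipients of a group. Each sample was an extract of tissue, in which fewer cells of a type and less RNA per cell cannot be told apart.

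The liver secretes most plasma proteins, makes bile acids and glucose, and converts ammonia, hormones and foreign compounds. The small intestine digests and absorbs nutrients across a brush border of microvilli, renews its epithelium from crypts, and holds mucus, antimicrobial peptides and lymphocytes between the microbiota and the body. The organs exchange material through the portal vein and bile: bile acids made in liver are taken back up in the distal intestine, which signals to the liver through the hormone FGF15.

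Levels are deposited array values, taken as log2, so that 1 unit is a 2-fold step. They are given in the order of replicates 1 to 4, or as mean ± SD (n = 4), and differences are liver minus intestine ± the standard error (SE). A gene was called when limma placed the difference beyond 2-fold at an adjusted p under 0.05 (Benjamini-Hochberg over 22180 genes). Whether the tissues were normalized together is not stated. Most genes are named by a rule of size or list; F2, Arg1, Cps1, Otc, Fasn, Dgat2, Lgr5, Cd3e, B2m, Tlr5, Myh11, Gpbar1, Osr2 and the miRNA genes were chosen after their values were seen. Array medians lay between 4.12 and 4.19 in liver and between 4.39 and 4.45 in intestine. The tissue labels held: over 14 hepatocyte markers the mean level lay between 11.57 and 11.64 on the liver arrays and between 4.397 and 4.674 on the intestine arrays, and over 15 enterocyte markers between 5.17 and 5.223 and between 11.8 and 12.15. Of 11 markers of the exocrine pancreas, which can be taken along with gut, 1 was called, Clps (-3.51 ± 0.16). Clps is also on the lists of Paneth cells and of intestinal lipid absorption used below, so its call does not single out pancreas. The mean level of the 11 markers lay between 3.874 and 4.025 on the liver arrays and between 4.335 and 4.467 on the intestine arrays.

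Of 22180 genes, 1086 were called higher in liver (4.90%) and 2341 higher in intestine (10.6%), 3427 in either direction (15.5%). Without the 2-fold minimum 65.3% of the genes differed, so counts below use it. The liver and intestine values did not overlap for 13357 of the 22180 genes, so a lack of overlap is common to most genes. The median difference over all genes was -0.22. With each array centred on its median, 1331 genes were called higher in liver (6.00%) and 1783 in intestine (8.04%), so that the liver's share of the calls went from 31.7% to 42.7%; it was 47.7% after quantile normalization (6.75% of genes higher in liver, 7.39% in intestine) and 47.2% after centring on ubiquitous reference genes. These scalings moved the median of all genes to 0.05, 0.064 and 0.14. None of the 3 turned a call, and 1086 liver calls and 1601 intestine calls stood on the deposited scale and under all 3. All 3 moved the median of all genes toward liver, by much less than 2-fold. A shift of that direction and size could hardly end a liver call or turn any call. Of the 1086 liver calls 475 had an intestinal mean below the array median, and 770 of 2341 intestine calls had a liver mean below it. Such levels were also frequent among all 22180 genes, of which 7594 lay below the array median in both tissues and 11866 above it in both. Where 1 tissue is that dim background signal narrows the difference, so a fold there can be understated. Differences of at least 8 units were reached by 33 liver calls and 41 intestine calls.

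**Figure D1:**
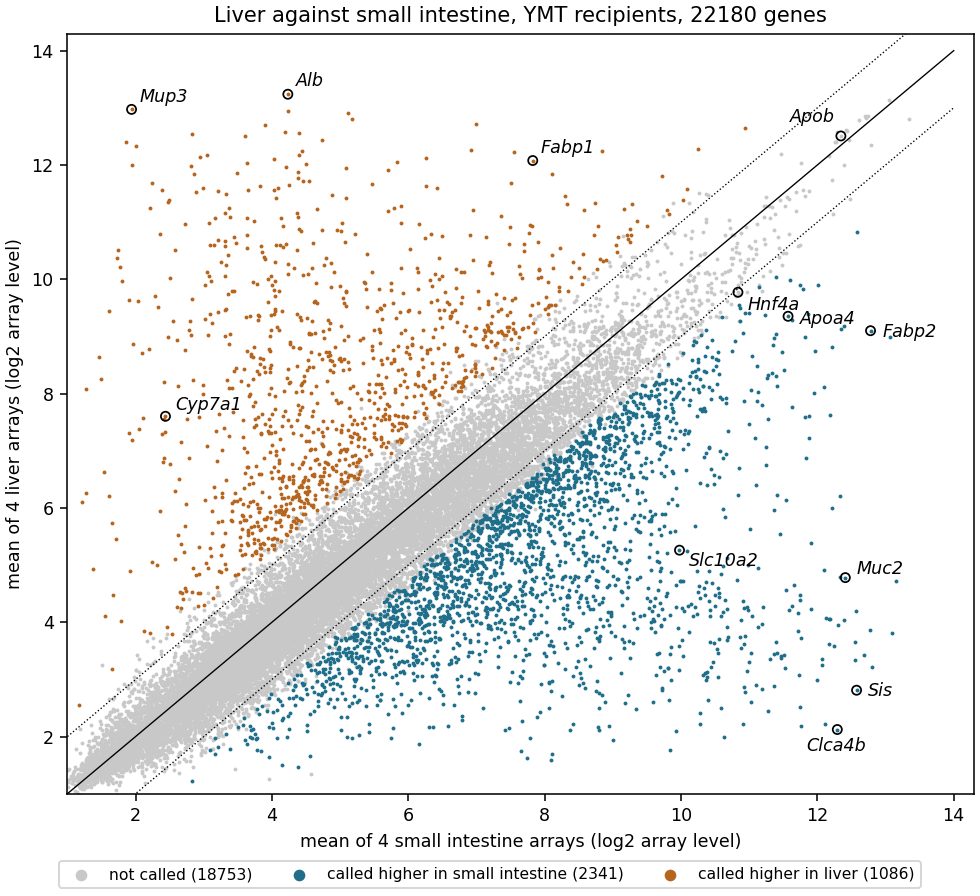
Mean log2 array level of 22180 genes in the small intestine (x axis) and the liver (y axis) of YMT recipients, 4 arrays each; the solid line marks equal levels and the dotted lines a 2-fold difference. Genes called higher in liver (1086) reach down to the lowest intestinal levels, those called higher in intestine (2341) to the lowest liver levels, and Apob lies near equality at a high level in both.

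All 17 plasma transport proteins measured, all 19 coagulation and fibrinolysis genes and all 16 complement factors were called higher in liver, with median differences of 7.41, 7.28 and 5.43. Albumin, Alb, the main carrier protein of plasma, stood at 13.23, 13.24, 13.26 and 13.22 on the liver arrays and at 4.68, 3.77, 3.95 and 4.53 on the intestine arrays. The liver values lay close together, and the groups were far apart, by 9.01 ± 0.19 (adjusted p 1.39e-10). Fgb, the beta chain of fibrinogen, read 12.58, 12.53, 12.6 and 12.48 in liver and 3.08, 3.04, 2.57 and 2.61 in intestine, a difference of 9.72 ± 0.13. The other chains behaved alike, with 10.33 ± 0.07 for Fgg and 8.16 ± 0.09 for Fga. Prothrombin, F2, differed by 7.54 ± 0.07 and complement factor C5, listed as Hc, by 7.71 ± 0.08.

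The 10 named genes of largest difference toward liver were led by Mup3, a major urinary protein that carries pheromones, at 12.89, 13.0, 13.02 and 12.98 in liver against 2.04, 1.78, 1.7 and 2.24 in intestine. Its difference was 11.03 ± 0.12, and that of Mup20 was 10.07 ± 0.10. Serpina1d, an antitrypsin, followed with 10.55 ± 0.23; Mup and Serpina1 genes have close copies whose signals the probes may share. Hamp, which encodes hepcidin, the hormone that restrains iron uptake, read 12.09, 11.84, 12.48 and 12.31 in liver and 2.59, 2.72, 4.21 and 2.67 in intestine. The intestinal array of replicate 3 was the high one there, and no intestinal value came near the liver values (difference 9.13 ± 0.33). Hrg, a plasma glycoprotein, Uox, the urate oxidase, Mug1, a protease inhibitor of plasma, and Cyp2j5, a P450 enzyme, differed by 9.17 ± 0.15, 9.18 ± 0.09, 9.19 ± 0.12 and 9.44 ± 0.12.

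Amino acid breakdown separated into steps held by liver and steps held by both tissues. Of 23 genes of the urea cycle and amino acid breakdown 17 were called higher in liver and none higher in intestine (median 4.80). Tdo2, which opens tryptophan breakdown, read 11.3, 11.41, 11.41 and 11.3 in liver and 2.64, 2.52, 2.55 and 2.21 in intestine (8.88 ± 0.10). Hgd, in tyrosine breakdown, differed by 7.91 ± 0.10. Within the urea cycle the last enzyme, Arg1, read 11.33, 11.48, 11.36 and 11.51 in liver and 5.04, 5.23, 5.07 and 4.99 in intestine, far apart by 6.34 ± 0.08. The mitochondrial steps were closer: Cps1, which fixes ammonia, read 12.32, 12.28, 12.29 and 12.22 in liver and 10.61, 10.04, 9.87 and 10.47 in intestine (2.03 ± 0.15, called). Otc, which forms citrulline, read 10.85, 10.84, 11.01 and 10.68 in liver and 10.26, 10.21, 10.03 and 10.12 in intestine. All liver values of Otc were the higher ones, yet the difference of 0.69 ± 0.09 did not reach 2-fold and the gene was not called.

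Genes of drug and lipid chemistry followed, with exceptions in each list. Of 16 hepatocyte P450 genes 12 were called higher in liver and 1 higher in intestine (median 6.28); over the whole family of 98 P450 genes 40 and 8 were. Cyp2e1, which oxidises ethanol, read 12.59, 12.74, 12.75 and 12.7 in liver and 3.93, 3.83, 3.93 and 3.9 in intestine. The groups were 8.80 ± 0.07 apart. Of 11 UDP glucuronosyltransferases, which tag compounds for excretion, 6 were called higher in liver and 0 higher in intestine. All 12 genes of bile acid synthesis and conjugation were called higher in liver (median 4.64); Slc27a5, which activates bile acids for conjugation, differed by 6.46 ± 0.11. Of 13 hepatocyte bile acid and organic anion transporters 9 were called higher in liver, among them the uptake carrier Slco1b2 (8.90 ± 0.10) and the bile salt export pump Abcb11 (7.51 ± 0.14). The member called the other way was Atp8b1, a lipid flippase, with 8.54, 8.23, 8.54 and 7.89 in liver and 11.3, 11.45, 11.42 and 11.39 in intestine (-3.09 ± 0.14).

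Gluconeogenesis and glycogen genes were called higher in liver in 11 of 12 cases (median 3.80). G6pc, which releases glucose, read 10.79, 10.75, 10.39 and 11.21 in liver and 6.02, 6.83, 6.63 and 5.83 in intestine (4.46 ± 0.24). Gys2, the liver glycogen synthase, differed by 7.29 ± 0.10. Pck1, an early step of glucose synthesis, lay nearer, at 10.78, 11.49, 11.44 and 11.56 against 8.3, 9.81, 9.25 and 9.79. Its groups did not overlap and it was called (2.03 ± 0.32, adjusted p 0.0333), but it lost the call when intestine replicate 3 (2.02, adjusted p 0.0754) or liver replicate 2, 3 or 4 (1.97, 1.99 and 1.95; adjusted p 0.0956, 0.0898 and 0.0992) was left out.

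In fatty acid and triglyceride synthesis 13 of 20 genes were called higher in liver and 1 higher in intestine (median 2.72). Thrsp, a regulator of lipogenesis, differed by 6.50 ± 0.12, and Fasn, the fatty acid synthase, read 12.26, 11.94, 11.35 and 11.83 in liver and 8.45, 7.97, 7.73 and 8.27 in intestine (3.74 ± 0.20). The tissues split in the last step of triglyceride formation. Dgat1 read 6.53, 6.46, 6.35 and 6.29 in liver and 10.13, 10.47, 10.59 and 10.34 in intestine (-3.98 ± 0.11), while Dgat2, the other enzyme of this step, read 10.88, 10.68, 10.67 and 10.87 in liver and 8.81, 9.39, 9.5 and 9.15 in intestine (1.56 ± 0.14, adjusted p 0.0111). Both were called, in opposite directions. Fatty acid oxidation and ketone synthesis stood closer to parity, with 5 of 16 genes called higher in liver (7 and 10 under other scalings), none higher in intestine and a median of 1.05.

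The intestinal calls began with the absorptive surface. Of 18 brush border hydrolases 17 were called higher in intestine (median -7.19), as were 17 of 18 brush border structure genes (median -5.33) and 18 of 25 nutrient transporters (median -4.44). None of these was called higher in liver on the deposited scale, and 1 transporter was under each of the other scalings. Sis, sucrase-isomaltase, which splits sugars, read 2.93, 2.77, 2.77 and 2.77 in liver and 12.57, 12.58, 12.63 and 12.52 in intestine. The intestinal values differed little and lay far from those of liver (-9.77 ± 0.07). Vil1, villin, which bundles the actin of microvilli, read 4.03, 3.99, 3.92 and 4.29 in liver and 12.08, 12.27, 12.2 and 12.15 in intestine (-8.12 ± 0.09). Slc5a1, the sodium-coupled glucose carrier SGLT1, read 3.11, 3.14, 2.93 and 3.11 in liver and 11.42, 11.94, 11.9 and 11.65 in intestine (-8.65 ± 0.12). The peptide carrier Slc15a1 differed by -8.55 ± 0.12, the cobalamin receptor Cubn by -8.49 ± 0.08, and the microvillus cadherin Cdhr2 by -8.82 ± 0.15.

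The 10 named genes of largest difference toward intestine came from several cell types: enterocyte genes such as Sis, Mep1b, Krt20 and Clca4b, lectins and defensins such as Reg3g, Reg3b and Defa22, and the surface proteins Muc13 and Lypd8. Clca4b, of a family of chloride channel regulators, led with 1.98, 2.31, 1.95 and 2.25 in liver and 11.9, 12.31, 12.61 and 12.35 in intestine (-10.17 ± 0.15). Lypd8, which keeps bacteria off the epithelium, differed by -9.27 ± 0.09, the transmembrane mucin Muc13 by -8.90 ± 0.08 and the keratin Krt20 by -9.21 ± 0.08. In the list of junction genes and keratins 19 of 23 were called higher in intestine and 1, the claudin Cldn1, higher in liver, at 9.19, 8.65, 8.43 and 7.75 against 3.98, 4.03, 4.01 and 3.94 (4.51 ± 0.24). Of the keratins of simple epithelia, Krt19 differed by -6.43 ± 0.13 and Krt8 by -3.23 ± 0.08. Krt18, the partner of Krt8, read 9.53, 9.43, 9.25 and 8.88 in liver and 9.63, 9.16, 8.81 and 9.32 in intestine; these overlap, and the difference of 0.04 had a 95% interval from -0.38 to 0.46.

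**Figure D2:**
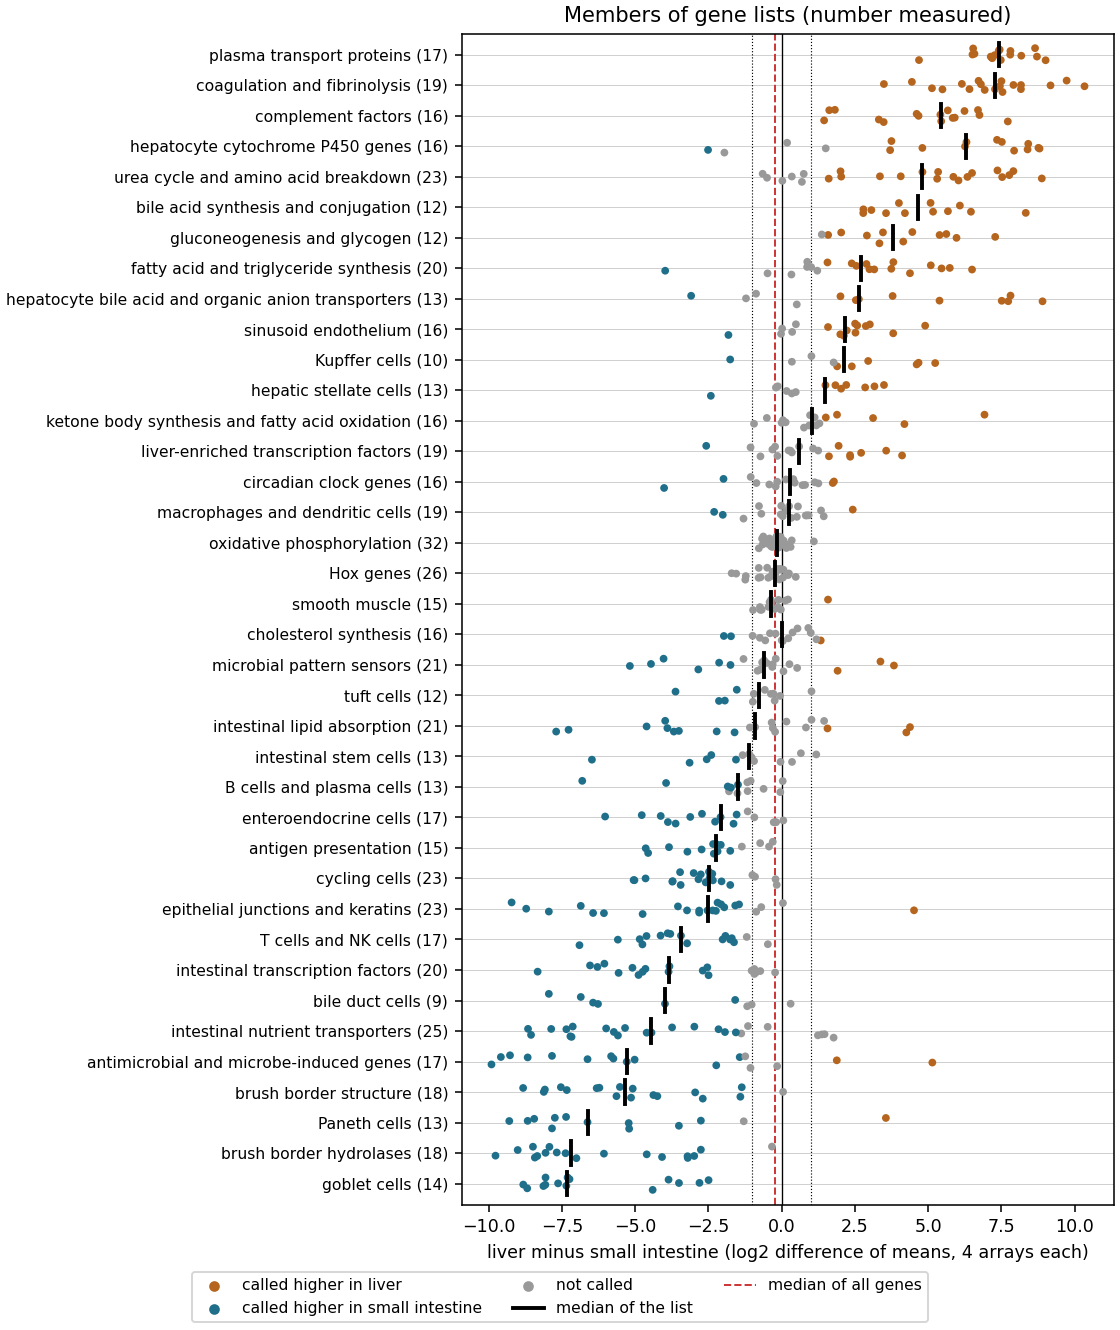
Liver minus intestine difference (log2) of every measured member of the gene lists (number measured in parentheses), coloured by call, with the median of each list as a black bar, the median of all genes as a dashed line, zero as a solid line and 2-fold as dotted lines. The plasma protein lists lie wholly to the right and the goblet cell list wholly to the left, brush border genes lie to the left except for 1 gene of each list near 0, while oxidative phosphorylation, Hox and smooth muscle genes gather around 0.

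The promoters of Alb, Fgb, Sis, Slc10a2 and Apob are shown because their genes mark the ends and the middle of the comparison: a liver carrier, a liver clotting protein, a brush border enzyme, the ileal bile acid carrier and a lipoprotein gene that both tissues held at a like level (0.16). Each is the 250 bases before the start of transcription, 5′ to 3′ on the gene's strand, from RefSeq, GRCm38.p6. Capitals mark matches, on either strand, to letters that factors of liver or gut are known to bind. The letters TTGCNNAA were searched for C/EBP proteins, CAAAGTCCA for the receptor HNF4, TTTATNG for the CDX proteins and AGATAA for the zinc finger family named after it. The letters TATAAA stood for the core promoter box. For HNF1 proteins a longer motif was searched, whose first letters, GTTAAT, were also searched alone, a choice made after sequences had been seen; each match to the longer motif is thus also a match to the shorter one. On the other strand the CDX letters can overlap the core box, as in Apob.
Alb, chr5:90460620-90460869, plus strand: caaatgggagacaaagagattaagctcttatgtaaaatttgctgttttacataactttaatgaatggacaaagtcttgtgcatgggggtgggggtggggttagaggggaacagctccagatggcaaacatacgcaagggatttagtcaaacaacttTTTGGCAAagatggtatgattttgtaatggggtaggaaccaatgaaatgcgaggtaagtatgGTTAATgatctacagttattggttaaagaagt
Fgb, chr3:83049864-83050113, minus strand: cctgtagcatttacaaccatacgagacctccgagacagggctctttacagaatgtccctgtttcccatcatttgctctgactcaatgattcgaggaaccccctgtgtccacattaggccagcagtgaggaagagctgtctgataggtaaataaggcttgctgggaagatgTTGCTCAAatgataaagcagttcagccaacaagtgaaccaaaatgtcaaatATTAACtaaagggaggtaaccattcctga
Sis, chr3:72967864-72968113, minus strand: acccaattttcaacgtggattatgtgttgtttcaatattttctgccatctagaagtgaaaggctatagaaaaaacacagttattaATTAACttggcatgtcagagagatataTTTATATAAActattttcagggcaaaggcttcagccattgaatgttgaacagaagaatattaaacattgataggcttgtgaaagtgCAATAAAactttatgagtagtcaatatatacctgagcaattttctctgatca
Slc10a2, chr8:5105288-5105537, minus strand: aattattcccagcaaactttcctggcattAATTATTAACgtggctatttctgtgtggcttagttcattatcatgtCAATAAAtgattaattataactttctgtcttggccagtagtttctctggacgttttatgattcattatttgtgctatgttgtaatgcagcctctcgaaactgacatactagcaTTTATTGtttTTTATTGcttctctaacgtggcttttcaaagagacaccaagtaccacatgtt
Apob, chr12:7977427-7977676, plus strand: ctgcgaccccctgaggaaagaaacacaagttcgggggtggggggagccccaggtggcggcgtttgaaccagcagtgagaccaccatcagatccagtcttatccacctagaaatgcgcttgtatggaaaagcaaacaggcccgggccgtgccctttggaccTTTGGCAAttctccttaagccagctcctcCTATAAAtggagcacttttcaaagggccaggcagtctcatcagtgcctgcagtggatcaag

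In these promoters the C/EBP letters lay 94 to 87 bases before the start in Alb, 80 to 73 in Fgb and 90 to 83 in Apob, and the short HNF1 letters 32 to 27 bases before it in Alb and 29 to 24 in Fgb. The CDX letters lay 52 to 46 bases before the start in Sis and, among 3 matches, at the same place in Slc10a2, whose promoter also held the full HNF1 letters. The C/EBP letters occurred in 13.2% of the 1080 promoters of genes called higher in liver, against 7.70% of the 2352 promoters of genes called higher in intestine and 9.15% of the 20520 promoters of all genes tested. The HNF1 letters occurred in 1.39%, 0.383% and 0.356%, the HNF4 letters in 1.30%, 0.893% and 0.404%, the GATA letters in 9.07%, 7.40% and 8.80%, and the short HNF1 letters in 9.35%, 5.40% and 5.94%. The CDX letters were no more frequent in intestinal genes (7.61%) than in all (8.69%) or in liver genes (7.87%). They reached 17.8% of 214 promoters of intestinal genes that differed by at least 5 units, a subset formed after values had been seen, and 13.3% of 165 such liver promoters; there the C/EBP letters stood at 9.81% and 24.8%. All 7 motifs were more frequent in both of these subsets than in all promoters; the TATA letters, for one, occurred in 11.3% of all, 16.8% of the intestinal and 26.1% of the liver subset. Base composition was not matched. A match describes letters in a window, not a bound site.

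All 14 goblet cell genes were called higher in intestine (median -7.33), with Muc2, the gel-forming mucin, at 4.52, 4.88, 4.98 and 4.74 in liver and 12.56, 12.35, 12.32 and 12.41 in intestine (-7.63 ± 0.11). Zg16, which binds bacterial walls, and Agr2, needed to fold mucin, differed by -8.82 ± 0.10 and -8.68 ± 0.13. Of 13 Paneth cell genes 11 were called higher in intestine (median -6.62) and 1, Habp2, a plasma protease, higher in liver. All 10 alpha defensins were called higher in intestine, although close copies within the family may share signal; Defa22 read 12.96, 13.05, 13.2 and 13.18 in intestine and 3.58, 3.63, 3.81 and 4.19 in liver. Of the antimicrobial and microbe-induced genes 12 of 17 were called higher in intestine and 2, the serum amyloid A genes Saa2 and Saa3, higher in liver (5.14 ± 0.30 and 1.88 ± 0.25). Saa3 lost the call without intestine replicate 2, intestine replicate 3 or liver replicate 3 (adjusted p 0.0727, 0.0658 and 0.0505). The lectin Reg3g, which binds Gram-positive bacteria, read 12.04, 11.91, 12.17 and 12.34 there and 2.23, 2.5, 2.19 and 1.93 in liver (-9.90 ± 0.13), and Reg3b differed by -9.58 ± 0.09.

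Rarer epithelial cells gave smaller differences. Of 17 enteroendocrine genes 11 were called higher in intestine (median -2.08), with the neurotensin gene Nts the farthest (-6.03 ± 0.11). Tuft cells, which sense parasites and succinate, gave 4 of 12 (median -0.764), led by Rgs13 (-3.62 ± 0.14), and stem cells 5 of 13 (median -1.11). In the stem cell list Olfm4 read 9.67, 9.76, 9.26 and 10.09 in intestine and 3.31, 3.26, 3.25 and 3.06 in liver (-6.47 ± 0.15). Lgr5, the receptor that defines crypt base stem cells, did not follow: it read 5.33, 4.71, 4.87 and 5.33 in intestine and 5.86, 5.27, 5.6 and 4.92 in liver, overlapping groups with a difference of 0.35 and a 95% interval from -0.13 to 0.83. Cell cycle genes were called higher in intestine in 19 of 23 cases (median -2.48). Mki67, a marker of dividing cells, read 9.19, 8.61, 8.36 and 9.1 there and 3.45, 3.98, 3.83 and 3.79 in liver (-5.05 ± 0.19).

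Immune genes split by cell type. Of 17 T cell and NK cell genes 15 were called higher in intestine (median -3.44). The granzyme Gzma, a killing enzyme of lymphocytes, read 2.8, 2.96, 2.76 and 2.76 in liver and 9.03, 9.93, 10.16 and 9.76 in intestine (-6.90 ± 0.21), and the T cell receptor subunit Cd3e differed by -4.13 ± 0.13. B cell and plasma cell genes were called higher in intestine in 5 of 13 cases, led by Jchain, which joins secreted antibodies (-6.80 ± 0.28), and Ighm (-3.94 ± 0.27). That count was 2 under each of the 3 other scalings and 3, 2, 3, 2, 2, 2 and 2 when intestine replicate 1, 2 or 4 or liver replicate 1, 2, 3 or 4 was left out. Antigen presentation genes followed the intestine in 11 of 15 cases (median -2.23). The class II genes H2-Aa and H2-Ab1 differed by -4.64 ± 0.23 and -4.56 ± 0.22, whereas B2m, a part of every class I complex, differed by -0.43 ± 0.06 and was not called.

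Of 21 microbial pattern sensors 6 were called higher in intestine and 3 higher in liver (median -0.598). Nlrc4 and Naip2, partners in an inflammasome that detects bacterial proteins, differed by -5.18 ± 0.07 and -4.46 ± 0.10. Toward liver went Lbp and Pglyrp2, secreted binders of lipopolysaccharide and peptidoglycan (3.37 ± 0.16 and 3.83 ± 0.10), and Tlr5, a surface receptor for flagellin, at 7.26, 7.03, 6.94 and 6.75 in liver and 5.33, 5.19, 5.1 and 4.73 in intestine (1.91 ± 0.14). Tlr5 and the inflammasome genes Nlrc4 and Naip2 were thus called in opposite directions.

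Of the lists for cells resident in liver beside hepatocytes, Kupffer cells, the macrophages of the sinusoids, gave 6 of 10 genes higher in liver and 1 higher in intestine (median 2.14). Vsig4, a complement receptor, read 7.09, 7.17, 7.2 and 7.3 in liver and 2.0, 1.96, 1.89 and 1.96 in intestine (5.24 ± 0.07). The general list of macrophages and dendritic cells gave 1 of 19 genes higher in liver and 2 higher in intestine, with a median of 0.253; after quantile normalization and reference gene centring 3 were called higher in liver. Sinusoid endothelium gave 11 of 16 genes higher in liver (median 2.17), among them Clec4g (4.89 ± 0.16) and the hyaluronan receptor Stab2 (3.81 ± 0.11). Bmp2, a growth factor on that list, was the 1 called higher in intestine (-1.82 ± 0.12), though not after quantile normalization (-1.37, adjusted p 0.0522). Hepatic stellate cells gave 7 of 13 (median 1.49), led by the matrix gene Dcn (3.49 ± 0.26), and 1 higher in intestine, the peptide receptor Vipr1 (-2.42 ± 0.12). The bile duct list ran toward intestine, with 6 of 9 genes called higher there and none higher in liver (median -3.98), and 5 under each other scaling. Several of its members, Krt19 among them, are also on the lists of gut epithelium, so it does not single out bile duct cells.

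Gene lists of other constituents of the gut wall had medians below a 2-fold difference, though some members differed by more. Which layers of the wall the extracts held was not tested. Of 15 smooth muscle genes none was called higher in intestine and 1, Mylk, higher in liver; their mean level lay between 5.203 and 5.505 on the intestine arrays and between 5.061 and 5.267 on the liver arrays. Myh11, the myosin of smooth muscle, read 6.17, 5.81, 6.35 and 6.32 in intestine and 5.44, 5.1, 5.1 and 5.1 in liver, without overlap but below the 2-fold minimum (-0.98 ± 0.13). The list's median of -0.365 became 0.0284 after quantile normalization, so it has no settled direction. Enteric neurons and glia gave 3 of 16 genes higher in intestine (18.8%, against 10.6% of all genes). Their median of -0.351 became 0.0128 after reference gene centring. Of these 3 genes Sst is also on the enteroendocrine list. Of 15 fibroblast and matrix genes 4 were called higher in liver (26.7%, against 4.90% of all genes) and 2 higher in intestine (13.3%). Their differences ran from -4.10 to 3.49, and their median of -0.0875 became 0.182 to 0.277 under the other scalings.

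Genes of respiration, of body axis patterning and of sterol synthesis were near parity. None of 32 oxidative phosphorylation genes and none of 26 Hox genes was called in either direction, with medians of -0.147 and -0.23, which turned positive under the other scalings (0.123 to 0.217 and 0.0362 to 0.134). Of the 26 Hox genes 16 lay below the array median in both tissues. Without the 2-fold minimum, when 19.1% of all genes were called higher in liver and 46.2% higher in intestine, limma placed 3 oxidative phosphorylation genes higher in liver and 15 higher in intestine at an adjusted p under 0.05, and 1 and 13 Hox genes. Each other scaling called 1 oxidative phosphorylation gene higher in liver with that minimum. Of 16 cholesterol synthesis genes 1 was called higher in liver and 2 higher in intestine; the counts were 2 and 2 after median centring, 2 and 0 after quantile normalization and 2 and 1 after reference gene centring. Of 13 ubiquitous reference genes 0 and 2 were, and under each other scaling 0 and 1. On the deposited scale 3322 of the 11866 genes above the array median in both tissues had a 95% interval inside -0.5 to 0.5. Those named for the highest level in the lower tissue included the mitochondrial ND4, the translation factor Eif4a1, the iron store Fth1 and Apob. ND4 read 13.07, 13.11, 13.18 and 13.18 in liver and 13.0, 13.03, 13.14 and 13.01 in intestine, which overlap, and differed by 0.09 ± 0.07.

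Apob and Apoa1 were high in both tissues. Apob, the protein that holds a chylomicron or a very low density lipoprotein together, read 12.56, 12.53, 12.55 and 12.39 in liver and 12.04, 12.46, 12.55 and 12.33 in intestine. The groups overlapped, and the difference of 0.16 had a 95% interval from -0.09 to 0.41; it was 0.43, 0.04 and 0.53 after median centring, quantile normalization and reference gene centring. Apoa1, the main protein of high density lipoprotein, read 11.52, 11.56, 11.66 and 11.52 in liver and 11.56, 11.88, 11.92 and 11.8 in intestine. Its difference of -0.23 became 0.04, -0.09 and 0.14 under those scalings, so Apoa1 has no settled direction. Mttp, which loads lipid onto the Apob protein, read 10.14, 10.02, 9.89 and 9.89 in liver and 11.21, 11.77, 11.81 and 11.58 in intestine (-1.61 ± 0.13, adjusted p 0.00454). It was called on the deposited scale only, with -1.34, -1.34 and -1.24 (adjusted p 0.0866, 0.112 and 0.374) after median centring, quantile normalization and reference gene centring.

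Apoa4, a chylomicron protein, read 9.6, 9.27, 9.18 and 9.36 in liver and 10.21, 12.03, 12.46 and 11.58 in intestine, with no overlap but a wide intestinal spread. Its call (-2.22 ± 0.40, adjusted p 0.0421) was lost under the 3 other scalings (-1.95, -1.94 and -1.85; adjusted p 0.107, 0.182 and 0.185) and without any single array other than intestine replicate 1 (-1.92 to -2.30, adjusted p 0.0677 to 0.127). The list of intestinal lipid absorption as a whole gave 9 of 21 genes higher in intestine and 3 higher in liver (median -0.907), with the sterol carrier Npc1l1 far to the intestinal side (-7.27 ± 0.16).

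The fatty acid binding proteins, carriers of lipid inside cells, divided between the tissues. Fabp1, the liver form, read 11.92, 12.1, 12.05 and 12.24 in liver and 5.74, 8.55, 9.43 and 7.58 in intestine. Every liver value was above every intestinal one, and the intestinal values ranged widely (4.25 ± 0.63, adjusted p 0.00214). Fabp2, the intestinal form, read 8.96, 9.19, 9.04 and 9.21 in liver and 12.59, 12.84, 12.96 and 12.73 in intestine (-3.68 ± 0.10), so that its liver level, too, lay well above the array median. Fabp6, which carries bile acids, read 3.4, 3.64, 3.97 and 3.59 in liver and 12.9, 12.58, 12.11 and 12.59 in intestine (-8.89 ± 0.17).

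The bile acid circuit gave 7 of 13 genes higher in liver and 4 higher in intestine. On the intestinal side stood uptake and signal. Slc10a2, the apical carrier whose promoter is shown above, read 10.85, 9.68, 9.08 and 10.3 in intestine and 5.03, 5.25, 5.29 and 5.47 in liver (-4.72 ± 0.32). Fgf15, the hormone sent to the liver, read 10.31, 9.79, 9.11 and 9.56 in intestine and 4.34, 4.34, 4.25 and 4.4 in liver (-5.36 ± 0.21). Both were highest on intestine replicate 1 and lowest on replicate 3, and neither overlapped the liver values. Slc51a, a subunit of the basolateral exporter, differed by -7.17 ± 0.17.

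On the hepatic side stood the receiving parts. Klb, the co-receptor that FGF15 needs, read 8.28, 8.14, 8.15 and 7.63 in liver and 4.23, 4.02, 4.23 and 4.21 in intestine (3.88 ± 0.14). Fgfr4, the receptor itself, read 6.52, 6.57, 6.97 and 6.52 in liver and 5.35, 5.35, 5.23 and 5.25 in intestine. The groups did not overlap, and the difference of 1.35 ± 0.11 was called (adjusted p 0.0322), but not without intestine replicate 2, 3 or 4 (1.37, 1.33 and 1.33; adjusted p 0.0569, 0.0831 and 0.0824). Slc10a1, the carrier that takes bile acids from portal blood, read 11.85, 11.54, 11.49 and 11.62 in liver and 3.89, 3.89, 3.89 and 3.6 in intestine (7.81 ± 0.10).

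Cyp7a1, whose enzyme opens the main route from cholesterol to bile acids, read 6.76, 7.25, 8.09 and 8.31 in liver and 2.44, 2.44, 2.44 and 2.43 in intestine (5.17 ± 0.29). Cyp8b1, which sets the share of cholic acid, read 9.39, 9.3, 7.47 and 8.6 in liver and 4.77, 4.92, 4.61 and 4.46 in intestine (4.00 ± 0.37). Liver replicates 1 and 2 were the low ones for Cyp7a1 and the high ones for Cyp8b1. The bile acid receptor FXR, listed as Nr1h4, read 8.88, 8.76, 9.04 and 9.0 in liver and 9.16, 8.32, 8.24 and 8.76 in intestine. The groups overlapped (difference 0.30, 95% interval from -0.12 to 0.72). Its target Nr0b2, a repressor, read 8.21, 7.91, 6.95 and 8.27 in liver and 5.64, 5.6, 5.44 and 5.33 in intestine (2.33 ± 0.26), while the membrane receptor Gpbar1 stayed near the array median in both tissues, between 4.39 and 4.66.

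**Figure D3:**
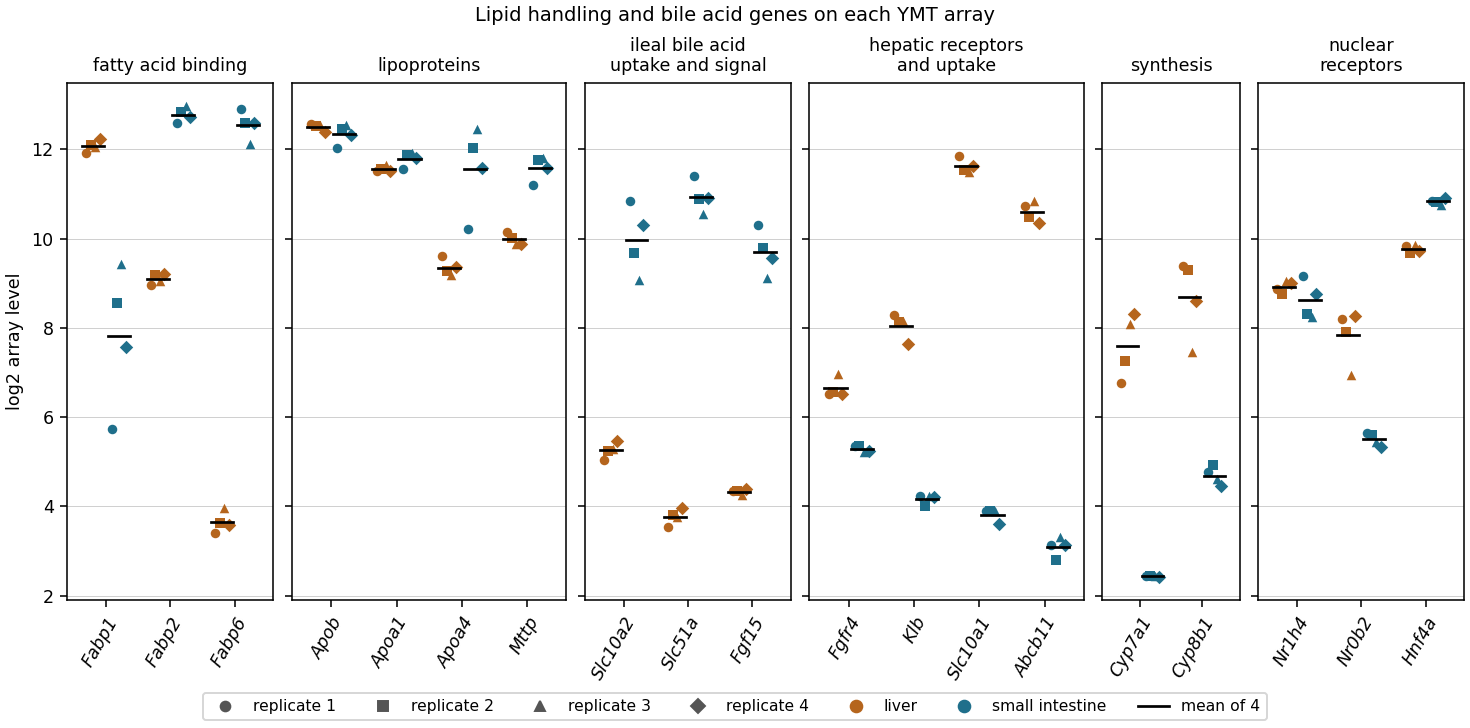
Log2 array level (y axis) of lipid handling and bile acid genes on each of the 4 liver and 4 small intestine arrays of YMT recipients, with the mean of each group as a bar. Slc10a2 and Fgf15 stand high in intestine and Klb, Slc10a1 and Cyp7a1 in liver, Apob and Nr1h4 overlap, and the intestinal values of Fabp1 spread from 5.74 to 9.43.

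Of 19 liver-enriched factors 7 were called higher in liver and 1 higher in intestine (median 0.595), against 14 of 20 intestinal factors higher in intestine and none higher in liver (median -3.84). Cdx2, which specifies intestinal epithelium, read 4.01, 4.03, 4.06 and 4.03 in liver and 8.98, 8.77, 8.89 and 9.03 in intestine (-4.88 ± 0.08). Hnf4g and Klf5, of the epithelial programme, differed by -8.33 ± 0.08 and -6.54 ± 0.08. Toward liver, Onecut1 differed by 4.11 ± 0.31, Prox1 by 3.56 ± 0.13 and Cebpa by 2.71 ± 0.10; Cebpa read 9.28, 9.36, 9.33 and 9.31 in liver and 6.92, 6.49, 6.49 and 6.54 in intestine. Hnf4a, a nuclear receptor that both epithelia need, read 9.84, 9.67, 9.86 and 9.72 in liver and 10.85, 10.83, 10.75 and 10.91 in intestine. The groups did not overlap, with intestine higher (-1.06 ± 0.08), but the difference was not placed beyond 2-fold. Tbx3, listed among the liver factors, was called higher in intestine (-2.58 ± 0.15).

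Of 16 circadian clock genes 2 were called higher in liver and 2 higher in intestine, and under each other scaling 3 and 1. Npas2, a partner of the clock activator, read 4.9, 4.06, 4.07 and 3.99 in liver and 8.22, 8.48, 8.42 and 7.95 in intestine (-4.01 ± 0.20). The rhythmic output gene Dbp read 8.94, 9.16, 9.15 and 9.25 in liver and 8.22, 8.43, 8.55 and 8.46 in intestine (0.71 ± 0.10, not called). Nr1d1, a repressor in the clock loop, read 9.76, 8.81, 8.75 and 8.62 in liver and 9.35, 9.69, 9.41 and 9.18 in intestine, overlapping groups. The hour of sampling was not analysed here.

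Of 478 miRNA genes measured, 4 were called higher in liver and 13 higher in intestine. Both shares were below those of all genes (4.90% and 10.6%). Mir192, Mir215 and Mir194-1 are known as miRNA genes of epithelia, of gut and kidney among others. Their mature forms are printed from RefSeq, GRCm38.p6, with the seed, bases 2 to 8, in capitals, because miR-192 and miR-215 share a seed, by which a miRNA recognises its targets, while miR-194 has another.
mmu-miR-192-5p, chr19:6264857-6264877, plus strand: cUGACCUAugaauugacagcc
mmu-miR-215-5p, chr1:185313610-185313630, plus strand: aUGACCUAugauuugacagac
mmu-miR-194-5p, chr1:185313325-185313346, plus strand: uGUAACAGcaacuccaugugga

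Mir192 read 2.97, 3.05, 1.89 and 2.73 in liver and 5.76, 5.73, 5.99 and 5.61 in intestine (-3.11 ± 0.23). Mir215 read 2.37, 2.64, 2.51 and 2.62 in liver and 4.73, 5.71, 5.83 and 5.25 in intestine (-2.85 ± 0.21). Both pairs of groups stood apart, so both genes with the shared seed were higher in intestine. Mir194-1 read 5.57, 4.72, 4.89 and 5.26 in liver and 6.78, 7.68, 7.47 and 6.61 in intestine (-2.02 ± 0.26, adjusted p 0.0117); it was not called after quantile normalization or reference gene centring (-1.65 and -1.66, adjusted p 0.11 and 0.103). The labelled cDNA of such an array reads precursor or host transcripts, so these values are not levels of the mature forms.

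The 4 intestine arrays differed from each other in genes of intestinal segments and of antibodies. The list of proximal genes had a mean level between 6.625 and 7.727 and the distal list between 10.09 and 10.78. Lactase, Lct, read 7.82, 10.76, 11.26 and 9.99, and the alcohol dehydrogenase Adh6a 7.64, 9.17, 9.59 and 8.77. Adenosine deaminase, Ada, read 8.44, 10.51, 10.92 and 10.05, and the glucose carrier Slc2a2 8.69, 10.3, 10.31 and 9.67. Each was lowest on replicate 1 and highest on replicate 3, as were Fabp1 and Apoa4 above and 8 of the 14 measured proximal genes in all. Of the 13 distal genes 8 ran the other way, highest on replicate 1 and lowest on replicate 3: besides Slc10a2 and Fgf15, Fabp6 (12.9, 12.58, 12.11 and 12.59), Slc51a (11.4, 10.88, 10.56 and 10.9) and the transcription factor Osr2 (10.52, 10.13, 9.59 and 9.96) did so. Reg3g and Slc3a1, also on the distal list, were not highest on replicate 1. Sis (12.57, 12.58, 12.63 and 12.52) and Vil1 (12.08, 12.27, 12.2 and 12.15) varied little over the same arrays. How many of all genes had either order was not counted, so these counts have no background share beside them. The labels name no segment, and the part of sampling position in these values was not tested.

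Cyp2b10, a P450 enzyme induced by xenobiotics, had the order of the proximal genes, at 6.05, 9.49, 10.3 and 8.92 in intestine against 6.51, 6.9, 7.11 and 6.42 in liver. The value of intestine replicate 1 lay below every liver value and the others above, and the gene was not called (-1.96 ± 0.75, adjusted p 0.623); without that array it was (-2.83, adjusted p 0.00112). All 13 measured distal genes were called higher in intestine (median -6.03), and of 14 proximal genes 6 were, with 2 higher in liver.

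Of the 5 named genes of widest spread over the intestine arrays 4 were antibody genes. Ighg3, a heavy chain constant region, read 8.6, 3.99, 4.45 and 3.88, high on replicate 1 alone. The light chain segment Igkv1-133 read 10.2, 5.44, 8.36 and 9.64, Igkv6-23 read 3.22, 5.52, 1.97 and 7.57, and Igkv8-30 read 5.42, 7.24, 4.26 and 8.3. Igkv6-23 and Igkv8-30 had the same order over the arrays, and Ighg3 and Igkv1-133 each had another. In liver all 4 stayed between 1.21 and 3.6. Igkv1-133 (-6.18 ± 0.85, adjusted p 0.000689) and Igkv8-30 (-4.13 ± 0.72, adjusted p 0.00654) were called; Igkv6-23 was not (-3.23 ± 0.99, adjusted p 0.153) except without intestine replicate 3 (-4.09, adjusted p 0.0178). The constant region Ighm, by contrast, read 12.36, 11.58, 11.42 and 12.43. Segments are near copies of each other, so a probe set may read more than 1.

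**Figure D4:**
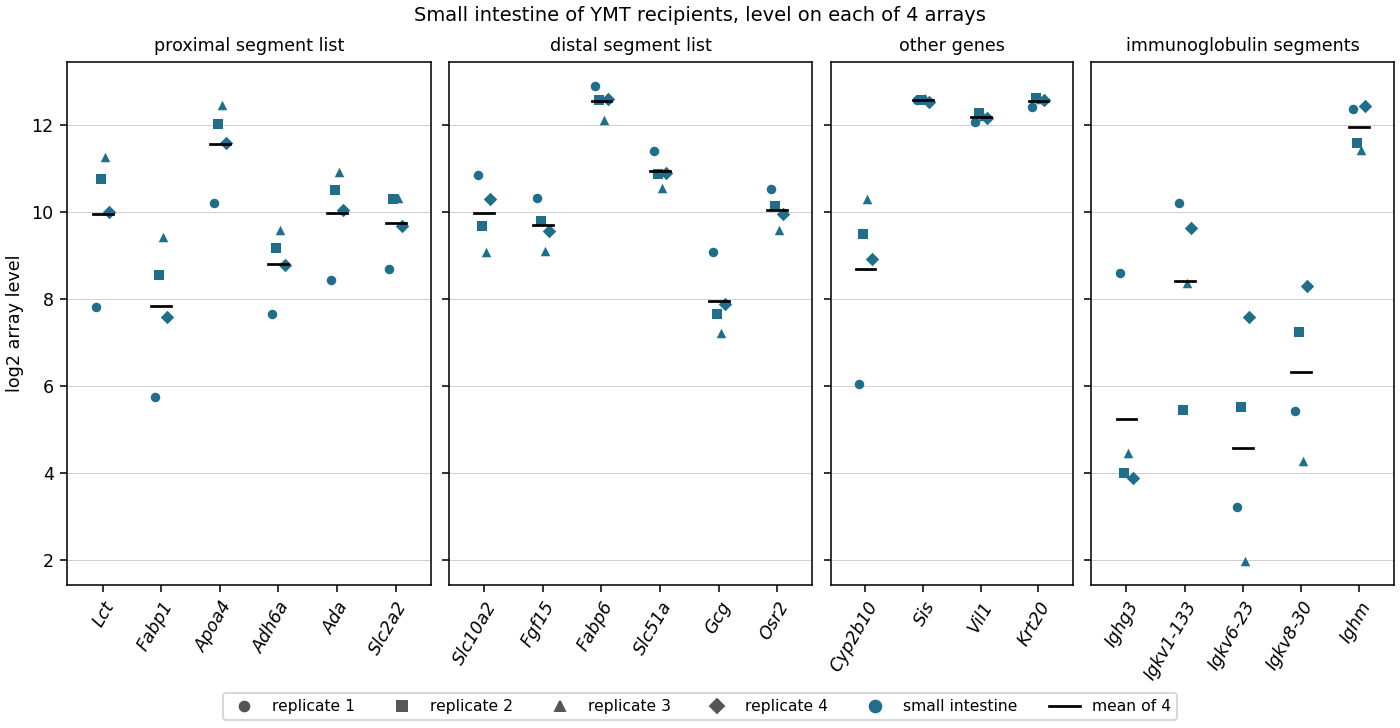
Log2 array level (y axis) on each of the 4 small intestine arrays of YMT recipients, by replicate, for genes of proximal and distal segments, other genes and immunoglobulin segments, with the mean as a bar. Replicate 1 is lowest for Lct, Fabp1 and Cyp2b10 and highest for Slc10a2 and Fgf15, and of the immunoglobulin genes only Igkv6-23 and Igkv8-30 share an order.

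Within liver the named genes of widest spread were Igfbp1, Foxq1, G0s2, Gbp11 and Snord1b. Igfbp1, a binder of insulin-like growth factors that insulin represses, read 8.93, 8.23, 5.97 and 6.12 in liver and 3.89, 4.07, 3.84 and 4.14 in intestine, and was called (3.33 ± 0.60, adjusted p 0.012). Foxq1, a forkhead factor, read 8.53, 7.74, 8.76 and 5.96 in liver, low on replicate 4; its difference of 2.44 ± 0.51 missed the threshold (adjusted p 0.0603) and passed it without that array (3.04, adjusted p 8.01e-05). G0s2, an inhibitor of lipolysis, read 6.42, 7.36, 6.04 and 8.71, and missed it as narrowly (2.42 ± 0.48, adjusted p 0.0507), passing without liver replicate 1, 3 or 4 (2.65, 2.78 and 1.89; adjusted p 0.0408, 0.0147 and 0.0427). Both passed under all 3 other scalings. Gbp11, of a family of guanylate-binding proteins, read 6.46, 4.53, 6.89 and 4.84 in liver and between 2.56 and 3.02 in intestine, and was called (2.96 ± 0.48, adjusted p 0.00847). Snord1b, a small nucleolar RNA, read 6.92, 4.44, 6.02 and 6.53 in liver and 7.35, 7.15, 7.84 and 6.86 in intestine; the groups overlapped and it was not called (-1.32 ± 0.47). The lipogenic malic enzyme Me1 read 11.82, 11.48, 10.2 and 11.48 and was lowest on replicate 3, as were Fasn and Cyp8b1 above.

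**Figure D5:**
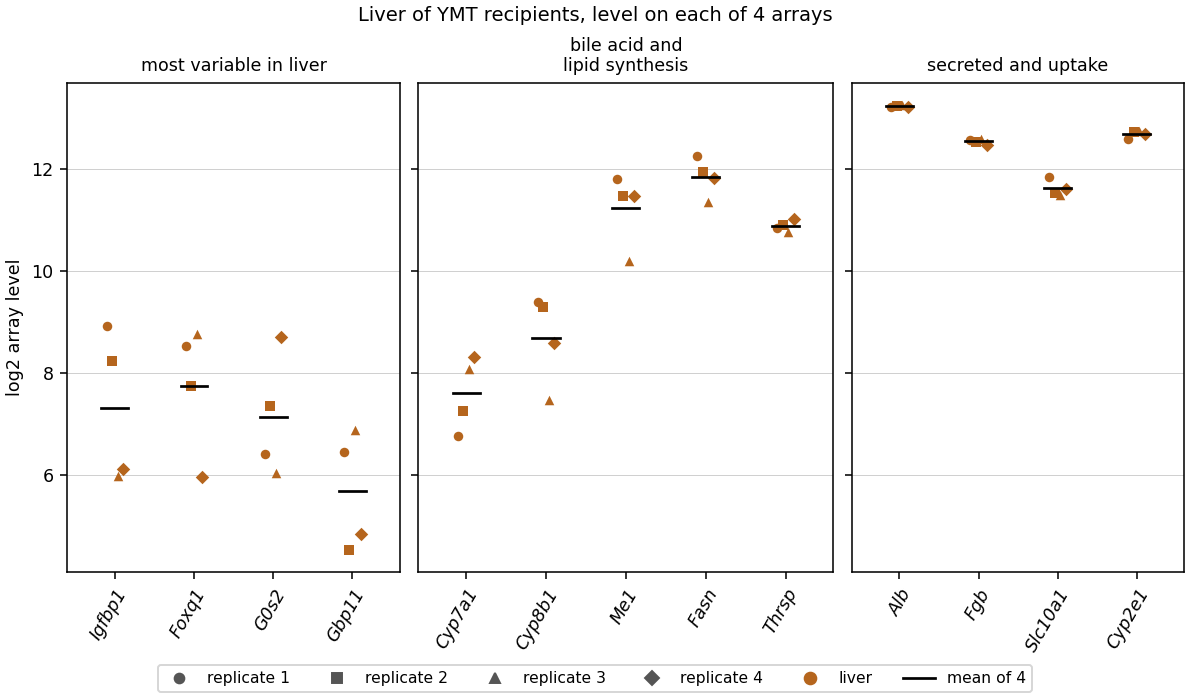
Log2 array level (y axis) on each of the 4 liver arrays of YMT recipients, by replicate, with the mean as a bar. Igfbp1 is high on replicates 1 and 2, Cyp7a1 is low on the same arrays, and Alb, with values from 13.22 to 13.26, hardly varies.

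The OMT recipients gave the same contrast in animals that shared no array with it. There 1096 genes were called higher in liver (4.94%) and 2252 higher in intestine (10.2%); the other scalings gave 1435 and 1663 (median centring), 1494 and 1629 (quantile normalization) and 1285 and 1774 (reference gene centring). Of the YMT calls 2893 were called the same way in OMT recipients, 84.4% of the YMT calls and 86.4% of the 3348 OMT calls, and 0 the other way. Alb differed by 9.39 in OMT recipients, Vil1 by -8.02, Sis by -9.77, Slc10a2 by -3.47 and Fgf15 by -5.05; the interaction passed for none of the 5 (adjusted p 0.262, 0.745, 0.984, 0.292 and 0.808).

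The tissue difference itself was unequal between the donor groups for 1295 of 22180 genes (5.84%) by the interaction test, of which 525 were YMT calls. The liver minus intestine difference was the larger in YMT recipients for 495 and the smaller for 800; that split was 386 and 729 after median centring, 624 and 577 after quantile normalization and 854 and 328 after reference gene centring. One was G6pc. In YMT recipients it averaged 10.79 ± 0.34 in liver and 6.33 ± 0.48 in intestine, in OMT recipients 7.54 ± 0.65 and 8.05 ± 0.69 (n = 5), where it was not called (-0.51). The YMT difference exceeded the OMT difference by 4.97 ± 0.48 (adjusted p 3.93e-06). Slco1a1, a hepatic organic anion carrier, averaged 9.63 ± 0.10 in YMT liver and 5.07 ± 0.30 in OMT liver, against 1.90 ± 0.21 and 1.78 ± 0.18 in intestine (4.44 ± 0.19, adjusted p 7.95e-11). Fasn and Fabp1 were called higher in liver in YMT recipients and not in OMT recipients (1.48 and 0.73 there), and the interaction passed for both (2.26 ± 0.36, adjusted p 0.000848; 3.52 ± 0.71, adjusted p 0.0056).

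For other genes the liver minus intestine difference was lower in YMT than in OMT recipients. Cyp7a1 averaged 7.60 ± 0.72 in YMT liver and 10.31 ± 0.37 in OMT liver (-2.67 ± 0.33, adjusted p 6.01e-05). Fmo2, a flavin monooxygenase, averaged 6.09 ± 0.31 in liver and 5.27 ± 0.07 in intestine of YMT recipients and was not called, while OMT recipients had 9.90 ± 0.26 and 5.37 ± 0.32 (-3.70 ± 0.23, adjusted p 2.38e-08). Slc16a5, a monocarboxylate carrier, was called higher in intestine in YMT recipients and not in OMT recipients. It averaged 5.22 ± 0.45 in liver and 9.65 ± 0.09 in intestine of YMT recipients, and 8.43 ± 0.40 and 9.65 ± 0.10 in OMT recipients (-3.21 ± 0.26, adjusted p 8.16e-07). Nr1h4, not called in YMT recipients, was called higher in liver in OMT recipients (1.57), with an interaction of -1.27 ± 0.20 (adjusted p 0.000852).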

How the data were processed

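Tissue RNA (250 ng per array) was hybridised to expression arrays, 1 sample each. The deposited values are on a log2 scale as far as their range shows; per the submitters' processing notes the authors used Affymetrix Expression Console and RMA, which corrects background, normalizes between arrays and summarises probes. The log base and whether both tissues were normalized together are not stated in the labels or notes. Of 41345 probe sets, 23521 had 1 gene symbol, 1814 several and 16010 none; 22180 genes were kept, each as its probe set of highest mean over the 8 arrays, with no filter on dim genes. Differences were fitted with limma 3.58.1 (R 4.3.3) and tested against a 2-fold minimum with treat, with Benjamini-Hochberg adjustment over all genes; the OMT contrast was fitted alike, and its difference from the YMT contrast was tested in a fit of all 18 arrays (any difference, adjusted p under 0.05). The precision is limited by the 4 arrays per group. Members, lists and motifs were chosen with earlier results of these data known. Genes were named by fixed rules: the 10 largest differences each way, up to 4 called members per list and 2 in the other direction, a set named whatever its result, the 5 most variable per tissue, the 10 of highest level among those within -0.5 to 0.5, and the 5 of smallest p for the interaction each way. Of 904 list entries 818 were measured. Alternatives were other scalings, filters, probe set rules, minimum folds, moderation, a block on replicate number and leaving out each array. Plots used matplotlib 3.10.9, and tables pandas 2.3.3.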

Additional observations from a re-analysis of the deposited data

Results flagged for a closer look

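Over the 137 genes named, each tissue's 4 arrays were screened for an array that stood apart from the other 3 by Dixon's criterion, which chance meets in about 1 in 20 groups. It was met in 27 of 274 groups, and in 16 of these the gene lay below the array median in that tissue. In intestine these arrays were replicate 1 for Hrg (2.90), Cubn (11.56), Onecut1 (3.84), Prox1 (5.26), Cebpa (6.92) and Ighg3 (8.60), replicate 2 for Mug1 (3.29), Gys2 (3.36) and Klb (4.02), replicate 3 for F2 (3.95) and Hamp (4.21), and replicate 4 for Clps (8.14), Stab2 (3.78), Slc10a1 (3.60) and Cyp7a1 (2.43). In liver they were replicate 1 for Pck1 (10.78), Sis (2.93), Naip2 (3.84), Myh11 (5.44), Npas2 (4.90), Nr1d1 (9.76) and Slc2a2 (11.23), replicate 3 for Slc5a1 (2.93), Fgfr4 (6.97) and Hnf4g (3.33), and replicate 4 for Cubn (2.84) and Rgs13 (2.41).

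The tissue difference of 24 named genes was unequal between YMT and OMT recipients by limma's interaction test. The liver minus intestine difference was larger in YMT recipients by 4.97 for G6pc, 4.44 for Slco1a1, 3.52 for Fabp1, 2.67 for Thrsp, 2.59 for Me1, 2.26 for Fasn, 1.84 for Pck1, 1.45 for Mup20, 1.27 for Slc2a2, 1.04 for Uox, 1.0 for Dgat2, 0.93 for Gys2, 0.71 for Cyp2j5, 0.63 for Cebpa and 0.58 for Hgd. It was smaller, or further toward intestine, by -3.70 for Fmo2, -3.21 for Slc16a5, -2.67 for Cyp7a1, -1.82 for Lbp, -1.27 for Nr1h4, -1.11 for Lypd8, -0.93 for Pglyrp2, -0.63 for Fgfr4 and -0.62 for Hnf4a. Slc2a2, Pglyrp2, Fgfr4 and Hnf4a lost the call under at least 1 other scaling. With the replicate number as a block the call ended for Slc2a2 (adjusted p 0.0917), Fgfr4 (0.0668) and Hnf4a (0.0634). Leaving out 1 array at a time ended it in 15 of 18 fits for Slc2a2 (adjusted p up to 0.0929) and in 13 of 18 for Pglyrp2 (up to 0.093). No explanation of these differences was tested.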

How the results depend on the processing

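No value named here changed its direction among the called genes, and 107 of 114 called genes stayed called under every alternative other than the 4-fold minimum; the exceptions are given with their values beside Apoa4, Pck1, Fgfr4, Mttp, Mir194-1, Saa3 and Bmp2. Without the 2-fold minimum 4237 genes were higher in liver and 10250 in intestine, and with a 4-fold minimum 566 and 956. The interaction counts were 854 and 328 after reference gene centring. The counts of list members that moved by over 1.5 times follow, by setting, for oxidative phosphorylation, Hox and clock genes those higher in liver and for cholesterol synthesis those higher in intestine; the cause was not tested. Over genes above the 75th percentile of levels: B cells 2, clock 1, enteric neurons 1, macrophages 0 and tuft cells 0. Over those above the median: B cells 3. With all 18 arrays in 1 fit: cholesterol synthesis 1. With any difference called: B cells 11, Hox 1, cholesterol 6, clock 8, neurons 10, pancreas 5, stem cells 9, ketone synthesis 11, liver factors 11, macrophages 5, pattern sensors 15, oxidative phosphorylation 3, tuft cells 9 and reference genes 7. With the 4-fold minimum: B cells 2, antigen presentation 6, cholesterol 0, clock 0, cycling cells 12, neurons 1, enteroendocrine cells 7, stellate cells 3, stem cells 3, ketone synthesis 3, liver factors 3, macrophages 0, proximal genes 3, sinusoid 7, smooth muscle 0, tuft cells 1 and reference genes 0. After median centring: B cells 2, oxidative phosphorylation 1 and reference genes 1. After quantile normalization: B cells 2, cholesterol 0, ketone synthesis 10, oxidative phosphorylation 1 and reference genes 1. After reference gene centring: B cells 2, cholesterol 1, ketone synthesis 10, macrophages 1, oxidative phosphorylation 1 and reference genes 1. Leaving out each array in turn gave 2 to 6 for B cells.

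The deviations of same-numbered liver and intestine arrays correlated by 0.11, 0.051, 0.003 and 0.017 over genes. Those of differently numbered arrays correlated by -0.095 to 0.069. Whether tissues of the same number came from 1 mouse cannot be read from these values, since the organs of 1 mouse need not vary together. A fit with the replicate number as a block called 1071 genes higher in liver and 2294 in intestine; of the named genes Apoa4 and Fgfr4 lost and Foxq1 and G0s2 gained the call. Dim genes limit the folds, and 4 arrays per group limit the power.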
